A study of Mus musculus with 30 samples.

Results

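The 43 genes described here encode the T cell receptor signalling and costimulation machinery: the CD3 and zeta chains, the proximal kinases, the adaptors, the lipase and protein kinase C arm, the costimulatory receptors, the inhibitory enzymes and adaptors, and calcineurin with its NFAT substrates. They were chosen by name, as rows of the deposited gene tables, from 44 listed names of which 2 (Gads and Grap2) are the same gene, and they are 43 of the 23420 genes in those tables. All 43 passed the filter on low counts that left 12611 genes for testing. Naive CD4 T cells (CD4+CD44-CD62L+GFP-) came from double reporter mice, in which GFP marks Foxp3 and Thy1.1 marks IL-10. Soluble anti-CD3 at 2.5 ug/ml activated them in the presence of irradiated feeder splenocytes without CD4 T cells, 6 per T cell, so every group had received a T cell receptor stimulus and costimulation from feeder cells. With doses in ng/ml, 20 of IL-12 made the Th1 cultures and 20 of IL-4 the Th2 cultures. The Th17 cultures had 2 of TGFb1 and 25 of IL-6. The pathogenic type, pTh17, had 25 of IL-6 plus 20 each of IL-1b and IL-23. The Tr1 cultures, a type known to make IL-10 without Foxp3, had 25 of IL-27. At 72 h, live T cells negative for Foxp3-GFP (7-AAD-TCRb+CD4+GFP-) were separated on Thy1.1 into an IL-10 positive and an IL-10 negative compartment, and 2000 cells were lysed per library. Each of the 10 groups had 3 libraries. The cells were polarised in vitro, no group was unstimulated, and no group lacked added cytokine.

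The T cell receptor has no enzyme of its own. Lck and Fyn phosphorylate the tails of the CD3 and zeta chains, Zap70 docks there, and it phosphorylates the adaptors Lat and Slp76 (encoded by Lcp2), which assemble phospholipase C gamma, exchange factors for Ras and Tec family kinases. The lipase makes diacylglycerol, which drives Ras and protein kinase C theta, and releases calcium, which drives calcineurin and NFAT. CD28 and ICOS add to this signal, while phosphatases, ubiquitin ligases, diacylglycerol kinases and Csk restrain it.

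The libraries held total expected counts of 4394704 to 11850597, and these 43 genes held 1.16% to 1.78% of them. Replicate libraries correlated at 0.971 to 0.992 in log CPM (counts relative to the library total after TMM scaling) over 30 pairs. Il10 was higher in every IL-10 positive library than in every IL-10 negative library of its culture, with group means of 0.474 to 66.2 CPM in negative and 23.5 to 814.8 CPM in positive groups. Thy1, whose Thy1.1 form is the reporter, had group means of 67.9 to 253 CPM in negative and 155 to 1224 CPM in positive groups. Summed CPM of 4 helper T cell markers, 1 of them the member Cd3e, ran from 1270 to 1900 over all libraries, and none of the 4 was at 0 in any group. In pTh17 this sum was 1650 to 1670 in IL-10 negative and 1350 to 1460 in IL-10 positive libraries, without overlap. There Cd2 had group means of 495.5 and 396.3 CPM, Cd4 of 684.8 and 638.3 CPM and Cd40lg of 51.01 and 45.08 CPM. In the other cultures the compartments overlapped. Markers of other cells moved with the compartment in some cultures. The summed CPM of 10 B cell markers was 114 to 124 in IL-10 negative and 208 to 277 in IL-10 positive pTh17 libraries, 15.2 to 19.6 and 44.9 to 55 in Th1, 6.39 to 11.4 and 19.8 to 22.5 in Th17, 39.4 to 43.2 and 45 to 60.7 in Th2, and 5.87 to 10.5 and 9.21 to 13.3 in Tr1, where alone the compartments overlapped. The summed CPM of 8 myeloid markers was 17.2 to 24.5 in negative and 70.8 to 81.4 in positive Th1 libraries. Most of it came from 1 gene, Itgam, with group means of 19.1 and 69.1 CPM. Means also rose for Itgax (0.334 and 2.899 CPM), Cd68 (1.323 and 2.476), Tyrobp (0.0692 and 1.13) and Fcer1g (0.0537 and 0.217). Lyz2 did not rise (0.0537 and 0.0418 CPM), and S100a8 was at 0 in the positive group. The same sum was 5.08 to 6.81 and 19 to 20.5 in Tr1 and 10.8 to 13.1 and 24.9 to 31.3 in pTh17. In Tr1, Itgam had means of 3.5 and 14.6 CPM, Itgax of 0 and 1.341 CPM and Cd68 of 1.877 and 3.055 CPM. Fcer1g did not rise there (0.1736 and 0.1335 CPM), and Lyz2 and S100a8 were at 0 in the positive group. The summed CPM of 4 NK cell markers was 6.53 to 8.51 and 81.2 to 85.1 in Th1 and 5.41 to 5.89 and 59.2 to 68.5 in Tr1, nearly all of it from Klrk1, with means of 7.28 and 82.4 CPM in Th1 and 5.08 and 61.9 CPM in Tr1. In the positive groups Ncr1 was at 0 in Th1 and Klre1 in Tr1. For 2 CD8 T cell markers the sums were 23.7 to 27.3 and 42.7 to 51.4 in Tr1, 20 to 27.6 and 30.3 to 36.5 in Th1, and 9.41 to 12.2 and 17 to 18.8 in Th2. The part of these cells in the results below was not tested. The IL-10 positive Tr1 library numbered 18 stood apart, with 32.8% of its counts in its 10 top genes against 24.9% and 24.6% in the other IL-10 positive Tr1 libraries. In bulk libraries, fewer cells of a type and less RNA per cell cannot be told apart. Whether replicates are separate cultures or animals is not in the labels, so p-values reflect only how these libraries varied among themselves, which could be technical variation.

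A gene was called where its adjusted p in edgeR's quasi-likelihood test was below 0.05, and every log2 difference below is IL-10 positive minus IL-10 negative within a culture unless a comparison of cultures is named. In the Th17 culture, 34 of the 43 genes were called, 7 higher and 27 lower, where 58.2% of all genes tested were called (29.2% higher and 28.9% lower). In Th1, 27 were called, 12 higher and 15 lower, where 43.8% of all genes were called (23.5% higher, 20.4% lower). Tr1 had 26, 15 higher and 11 lower, where 34.7% of all genes were called (20.5% higher, 14.2% lower). The pTh17 culture had 25, 7 higher and 18 lower, where 18.5% of all genes were called (10.1% higher, 8.33% lower). Th2 had 23, 9 higher and 14 lower, where 21.8% of all genes were called (12.3% higher, 9.49% lower). The share of the 43 called lower was thus 62.8% in Th17, 41.9% in pTh17, 34.9% in Th1, 32.6% in Th2 and 25.6% in Tr1. The median log2 difference of the 43 genes was -0.35 in Th17, beside -0.04 for all genes tested. It was -0.14 in pTh17 (all genes -0.00), -0.08 in Th2 (0.01), -0.01 in Th1 (-0.02) and 0.10 in Tr1 (0.05).

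The balance of the Th1, pTh17 and Tr1 calls moved with the scaling or the filter. In Th1, median-of-ratios size factors gave 17 higher and 13 lower, and testing without the filter on low counts gave 17 higher and 10 lower. In Tr1, the fit without the filter gave 6 higher and 13 lower, and limma on log2(TPM + 1) gave 10 higher and 15 lower. In pTh17, limma on log2(TPM + 1) gave 9 higher and 11 lower. Of the 135 calls in the 5 cultures, 104 held when each library of the culture was left out in turn and 31 ended without at least 1 of them, and the latter are named below with those libraries.

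**Figure D1:**
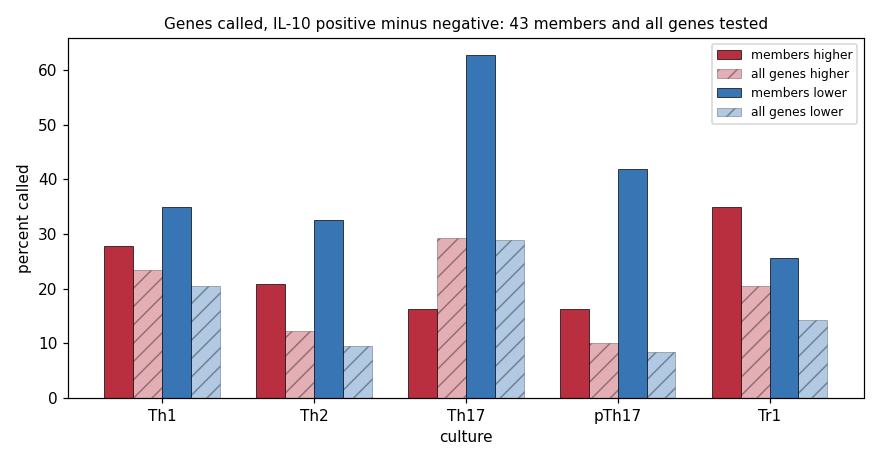
Bars give the percent called higher (red) or lower (blue) in the IL-10 positive compartment of each culture, for the 43 genes (solid) and all 12611 genes tested (hatched), edgeR at adjusted p below 0.05. In Th17, 62.8% of the 43 genes were lower against 28.9% of all genes; in Tr1 the higher share, 34.9%, was the larger of the 2 member shares.

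**Figure D2:**
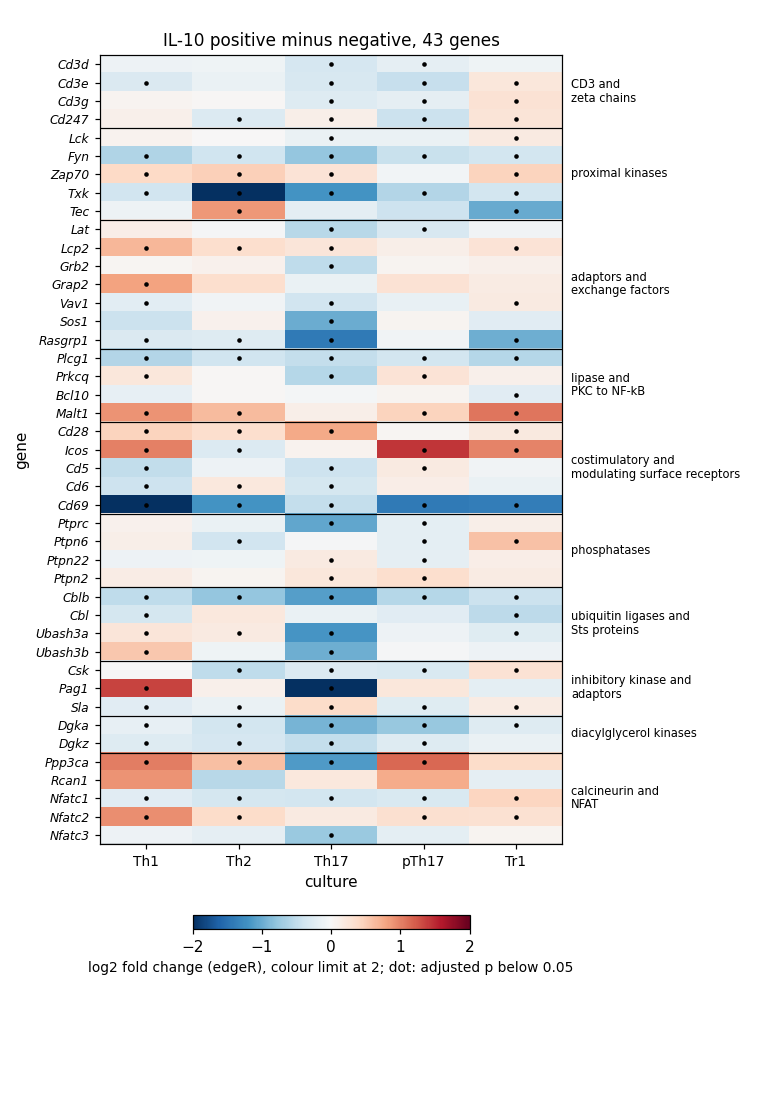
Colour gives the log2 difference, IL-10 positive minus negative, for the 43 genes (rows, grouped by role) in the 5 cultures (columns), from the edgeR fit of 30 libraries with 3 per group; dots mark calls at adjusted p below 0.05. The rows of Fyn, Txk, Plcg1, Cd69, Cblb and Dgka are blue across all 5 cultures, while Icos and Pag1 hold both colours.

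The CD3 and zeta chains, which carry the phosphorylated signalling motifs, went opposite ways in pTh17 and Tr1. All 4 were called lower in IL-10 positive pTh17 cells, where 8.33% of all genes were. In IL-10 positive Tr1 cells 3 of 4 were called higher, where 20.5% of all genes were, and none was called lower. The largest of these differences were in pTh17. There the summed helper T cell markers, Cd3e among them, were also lower in IL-10 positive libraries, and a link between these falls was not tested. Cd3e read 413, 457 and 427 CPM in IL-10 negative and 319, 305 and 316 CPM in IL-10 positive pTh17 libraries, without overlap, a log2 difference of -0.46 ± 0.07 (SE, adjusted p = 1.09e-06, edgeR). Cd247, the zeta chain, read 564, 546 and 555 CPM in negative and 430.3, 406.5 and 397 CPM in positive pTh17 libraries, also without overlap (-0.43 ± 0.05, adjusted p = 1.31e-08, edgeR). In Tr1 it read 714, 709.5 and 756 CPM against 833, 881 and 881 CPM, the positive libraries being the higher ones (0.25 ± 0.05, adjusted p = 9.88e-05, edgeR). Th17 cells had Cd3d (-0.33), Cd3e (-0.32) and Cd3g (-0.25) lower and Cd247 higher (0.12), Th1 cells had Cd3e lower (-0.29), and Th2 cells had Cd247 lower (-0.28). Set against the mean of the other 4 differences, Cd3e (0.52), Cd3g (0.37) and Cd247 (0.37) stood higher in Tr1, and Cd247 (-0.48) and Cd3e (-0.33) lower in pTh17 (edgeR, adjusted p = 1.11e-08 to 0.000678). Cd3g, Cd3d and Cd3e lie side by side on chromosome 9 of mm10, from 44969572 to 45009663, and Cd247 lies elsewhere.

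Several of these calls rest on few libraries. The Tr1 rise of Cd3e ended without positive library 18 (0.14, adjusted p = 0.15, edgeR) and without the filter on low counts (0.12, adjusted p = 0.215), which also ended that of Cd247 (0.16, adjusted p = 0.0803). The pTh17 call of Cd3d ended without any library but negative library 14 (edgeR, adjusted p = 0.0611 to 0.278), with median-of-ratios size factors (adjusted p = 0.0507) and with limma on log2(TPM + 1) (0.0976), and that of Cd3g without negative library 13 or 15 or positive library 14 or 15 (edgeR, adjusted p = 0.0761 to 0.183). The small Th17 rise of Cd247 ended without positive library 10 or negative library 11 or 12 (edgeR, adjusted p = 0.0649 to 0.136) and turned to -0.02 in limma on log2(TPM + 1). By transcript level per length, these chains were among the most abundant of the 43: means over 30 libraries were 1232 TPM for Cd3g, 1106 for Cd3d, 719 for Cd247 and 593 for Cd3e.

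Among the proximal kinases, Fyn and Txk were lower in the IL-10 positive compartment of all 5 cultures, and Zap70 was higher in 4 of 5. Fyn, a Src family kinase, read 136, 122 and 125 CPM in IL-10 negative and 79.8, 86.5 and 86.6 CPM in IL-10 positive Th1 libraries. In Th17 it read 51.0, 57.2 and 61.3 against 34.5, 31.9 and 33.1 CPM. In neither culture did the compartments overlap, and the same held in the other 3. The log2 differences of Fyn were -0.60 ± 0.08 in Th1, -0.40 ± 0.10 in Th2, -0.77 ± 0.09 in Th17, -0.44 ± 0.09 in pTh17 and -0.36 ± 0.09 in Tr1 (edgeR, adjusted p = 2.53e-09 to 0.00177). Zap70, the kinase that docks on the phosphorylated chains, rose by 0.40 ± 0.05 in Th1, 0.47 ± 0.05 in Th2, 0.27 ± 0.05 in Th17 and 0.45 ± 0.06 in Tr1 (edgeR, adjusted p = 8.47e-09 to 5.11e-05). In pTh17 it read 413, 415 and 457 CPM in negative and 419, 408 and 404.5 CPM in positive libraries, which overlapped (-0.06 ± 0.05, adjusted p = 0.518, edgeR). The pTh17 difference lay below the mean of the other 4 (-0.46 ± 0.06, adjusted p = 2.74e-07, edgeR). Lck, the kinase that starts the cascade, moved little: -0.13 in Th17 and 0.18 in Tr1 were called, and 0.07, 0.005 and -0.13 in Th1, Th2 and pTh17 were not. The Th17 call of Lck ended without negative library 10 or 11 or positive library 11 or 12 (edgeR, adjusted p = 0.0561 to 0.0835), and its Tr1 call ended without the filter (0.09, adjusted p = 0.362).

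Txk and Tec, both Tec family kinases that act on the lipase, are neighbours on chromosome 5 of mm10 (Txk 72695978 to 72752992, Tec 72755718 to 72868654), and they went opposite ways in Th2. Txk read 17.1, 13.4 and 19.2 CPM in IL-10 negative and 2.09, 3.72 and 1.43 CPM in IL-10 positive Th2 libraries. Tec read 2.72, 3.30 and 2.96 CPM in negative and 5.76, 4.79 and 5.91 CPM in positive Th2 libraries. Neither gene overlapped between compartments, and the log2 differences were -2.76 ± 0.18 for Txk (adjusted p = 1.52e-15, edgeR) and 0.87 ± 0.19 for Tec (adjusted p = 0.000619, edgeR). Against the mean of the other 4 differences, Txk stood at -2.13 ± 0.19 (adjusted p = 8.81e-12) and Tec at 1.30 ± 0.21 (adjusted p = 6.17e-06, both edgeR). In Th17, Txk read 241, 248 and 240.2 CPM against 109.0, 99.9 and 111.5 CPM, with the positive libraries far below the negative ones (-1.19 ± 0.09, adjusted p = 6.44e-14, edgeR). Its differences were -0.39 ± 0.09 in Th1, -0.59 ± 0.10 in pTh17 and -0.37 ± 0.10 in Tr1, each called. Tec in Tr1 read 20.3, 15.9 and 18.6 CPM against 10.4, 9.21 and 7.75 CPM, again without overlap (-1.0 ± 0.17, adjusted p = 1.34e-05, edgeR), and its Th1, Th17 and pTh17 differences of -0.10, -0.19 and -0.41 were not called.

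The promoter windows of Fyn, Txk and Cblb are given because these genes were lower in IL-10 positive cells of all 5 cultures; Cblb, a ubiquitin ligase, is described below with its family. They are from RefSeq on GRCm38.p6, the assembly of which mm10 is another name. They run 5′ to 3′ on the gene's strand from 250 bases before to 50 after a transcript start, the most upstream one listed with a window. The annotated bounds of Fyn (from 39369743), Txk (to 72752992) and Cblb (from 52031230) reach farther upstream than these starts. The Cblb window lies wholly within the annotated gene. Of the 43 genes, 33 matched a window by symbol, among them 5 of the 6 that were lower in all 5 cultures; Cd69 had no entry. Capitals mark a TCF/LEF match, the letters ATCAAAG read on the opposite strand. Fyn lies at chr10:39369549-39369848 (plus strand), Txk at chr5:72752728-72753027 (minus strand) and Cblb at chr16:52031299-52031598 (plus strand).
Fyn: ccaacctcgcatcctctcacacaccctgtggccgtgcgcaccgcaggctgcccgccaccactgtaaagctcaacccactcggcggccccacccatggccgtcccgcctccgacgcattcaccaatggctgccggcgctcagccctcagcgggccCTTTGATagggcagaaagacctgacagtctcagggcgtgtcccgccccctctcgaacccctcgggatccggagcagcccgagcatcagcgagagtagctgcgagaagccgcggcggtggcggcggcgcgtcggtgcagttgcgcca
Txk: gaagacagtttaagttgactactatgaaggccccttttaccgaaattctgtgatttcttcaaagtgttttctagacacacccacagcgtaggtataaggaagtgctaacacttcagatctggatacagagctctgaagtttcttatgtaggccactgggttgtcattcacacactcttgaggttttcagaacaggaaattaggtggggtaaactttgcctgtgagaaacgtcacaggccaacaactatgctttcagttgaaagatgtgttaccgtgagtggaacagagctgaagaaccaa
Cblb: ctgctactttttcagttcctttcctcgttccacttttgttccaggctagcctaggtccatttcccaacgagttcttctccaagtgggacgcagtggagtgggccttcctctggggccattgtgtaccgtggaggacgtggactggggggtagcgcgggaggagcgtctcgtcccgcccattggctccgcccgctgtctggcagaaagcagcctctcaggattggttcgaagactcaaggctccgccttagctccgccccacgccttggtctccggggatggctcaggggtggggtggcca
The 3 windows differed in base composition: G and C made up 69% of the Fyn window, 61.3% of the Cblb window and 42.7% of the Txk window, beside a mean of 53.8% over all 32851 windows. On both strands 10 motifs were searched: GTAAACA (FOXO), ATCAAAG (TCF/LEF), CCGGAAG (ETS), TGGAAAA (NFAT), the consensus of NF-kB, TGACTCA (AP-1), CAGCTG (E-box), CCACACCC (KLF), GCGTGGGCG (EGR) and TGTGGTT (RUNX). They occurred in 3.65%, 3.73%, 8.86%, 6.73%, 0.155%, 5.2%, 16.3%, 3.56%, 0.612% and 5.27% of all windows, in that order. The TCF/LEF letters in Fyn, 96 bases before the start, were the only match in these 3 windows. A match is a run of letters and not a shown site, and the other 9 motifs are absent only as these letters in these windows.

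The adaptors and exchange factors link Lat to Ras and to the cytoskeleton. In IL-10 positive Th17 cells they were mostly lower (5 of 7 lower, 1 higher, where 28.9% of all genes were lower), and elsewhere less uniform. Lcp2, which encodes the scaffold Slp76, was the one that rose in Th17, and it rose in 4 cultures. In Th1 it read 357, 355 and 362 CPM in IL-10 negative and 562, 577 and 562 CPM in IL-10 positive libraries, well apart (0.66 ± 0.06, adjusted p = 1.6e-12, edgeR). Its other differences were 0.34 in Th2, 0.25 in Th17 and 0.28 in Tr1, each called, and 0.11 in pTh17, which was not; the Th17 call ended in limma on log2(TPM + 1) (adjusted p = 0.113) and the Tr1 call without the filter (adjusted p = 0.0541). Grap2, which encodes the Gads adaptor that bridges Lat and Slp76, rose in Th1 alone among the 5 tests, by 0.80 ± 0.15 (adjusted p = 3.5e-05, edgeR), with differences of 0.34, -0.13, 0.29 and 0.16 in Th2, Th17, pTh17 and Tr1. Lat itself fell by 0.55 ± 0.06 on the log2 scale in Th17 (adjusted p = 1.99e-09, edgeR) and by 0.32 ± 0.07 in pTh17 (adjusted p = 0.000363, edgeR). Vav1, an exchange factor for Rac, was lower in Th17 (-0.39) and Th1 (-0.20) and higher in Tr1 (0.18). Grb2 and Sos1, the adaptor and exchange factor that bring Ras to Lat, were called only in Th17, at -0.50 ± 0.14 (adjusted p = 0.00305) and -0.99 ± 0.17 (adjusted p = 2.9e-06, both edgeR). The calls of Vav1 ended without Th1 positive library 6 (adjusted p = 0.0794) and without Tr1 negative library 16 or positive library 17 (0.0723 to 0.184), and that of Grb2 ended without Th17 negative library 10 (0.0548, all edgeR). Without the filter, Vav1 was called in neither Th1 (adjusted p = 0.18) nor Tr1 (0.491).

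Rasgrp1, the diacylglycerol-driven exchange factor for Ras, fell in Th17 and Tr1. It read 203, 228 and 225 CPM in IL-10 negative and 82.7, 85.0 and 79.2 CPM in IL-10 positive Th17 libraries. In Tr1 it read 289, 281 and 292.5 CPM against 170.2, 126 and 145 CPM. Both cultures showed a clear gap, with log2 differences of -1.41 ± 0.10 (adjusted p = 3.59e-15) and -0.97 ± 0.10 (adjusted p = 4.09e-10, both edgeR). Each also stood below the mean of the other 4 differences, by a log2 difference of -1.01 ± 0.11 in Th17 and -0.46 ± 0.11 in Tr1. In pTh17 it read 163, 177 and 177 CPM against 163, 165 and 164 CPM, overlapping (-0.07 ± 0.10, adjusted p = 0.696, edgeR). The smaller calls in Th1 (-0.30, adjusted p = 0.0116, edgeR) and Th2 (-0.25, adjusted p = 0.0409, edgeR) came with overlapping libraries. They ended in Th1 without positive library 4 or 6 or negative library 5 or 6 (edgeR, adjusted p = 0.0666 to 0.128), in Th2 without any library but negative library 9 (0.0555 to 0.278), and in both with limma on log2(TPM + 1) (0.0533 and 0.23).

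In the arm from the lipase to NF-kappa B, Plcg1 and Malt1 went opposite ways. Plcg1, phospholipase C gamma 1, was lower in all 5 cultures. In Tr1 it read 255, 245 and 265 CPM in IL-10 negative and 176, 171 and 169.5 CPM in IL-10 positive libraries, and in Th2 104, 125 and 98.3 CPM against 78.6, 90.0 and 79.4 CPM, with no overlap in either. The log2 differences were -0.58, -0.40, -0.48, -0.36 and -0.57 in Th1, Th2, Th17, pTh17 and Tr1, each ± 0.09 (edgeR, adjusted p = 1.13e-06 to 0.00306). No culture's difference was called against the mean of the other 4, and the pTh17 call ended in limma on log2(TPM + 1) (-0.28, adjusted p = 0.0803). Malt1, the protease of the CARMA1, BCL10 and MALT1 complex, was higher in 4 cultures. It read 89.3, 101.5 and 86.2 CPM in negative and 183, 169 and 228 CPM in positive Tr1 libraries, and 130.3, 198 and 179.7 CPM against 278, 324 and 344 CPM in Th1. These libraries did not overlap, and the log2 differences were 1.07 ± 0.12 in Tr1 (adjusted p = 6.14e-09), 0.89 ± 0.11 in Th1 (2.98e-08), 0.64 ± 0.12 in Th2 (5.5e-05) and 0.44 ± 0.11 in pTh17 (0.00252, all edgeR). In Th17 Malt1 read 281, 328 and 348 CPM against 323, 373 and 345 CPM, which overlapped (0.12 ± 0.11, adjusted p = 0.35, edgeR).

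Prkcq, protein kinase C theta, fell in Th17 from 499, 496 and 492 CPM to 335, 324 and 343 CPM, without overlap (-0.57 ± 0.06, adjusted p = 2.28e-11, edgeR), and rose in Th1 (0.23 ± 0.05, adjusted p = 0.000854, edgeR) and pTh17 (0.27 ± 0.06, adjusted p = 0.000448, edgeR). Bcl10 varied least of the 43 over the groups, with a ratio of 1.32 between its highest and lowest group mean. Its only call, in Tr1 (-0.22, adjusted p = 0.0489, edgeR), ended without any library but negative library 16 (0.0543 to 0.322), with median-of-ratios size factors (0.0688) and with DESeq2 (0.0727).

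Cd69 and Icos, an early activation receptor and a costimulatory receptor, had the largest differences among the surface receptors and did not move together. Cd69, which is induced early after receptor engagement and holds back egress from lymphoid tissue, was lower in all 5 cultures. It read 164, 159 and 175 CPM in IL-10 negative and 36.0, 36.1 and 34.0 CPM in IL-10 positive Th1 libraries. In pTh17 it read 110.5, 108 and 118 against 37.3, 42.3 and 47.5 CPM. The gap between compartments was wide in both and narrowest in Th17, where 109, 82.7 and 107.5 CPM stood against 74.0, 70.4 and 71.2 CPM. In Tr1 it read 159.8, 213 and 236 against 75.5, 89.9 and 68.7 CPM, and in Th2 64.8, 51.6 and 62.8 against 26.9, 24.5 and 27.0 CPM. The log2 differences were -2.23 ± 0.12 in Th1 (adjusted p = 1e-18), -1.19 ± 0.12 in Th2 (1.78e-10), -0.47 ± 0.11 in Th17 (0.000313), -1.41 ± 0.11 in pTh17 (2.41e-12) and -1.38 ± 0.11 in Tr1 (8.34e-13, all edgeR). Against the mean of the other 4, the Th1 difference was lower (-1.12 ± 0.13, adjusted p = 1.04e-08) and the Th17 difference higher (1.08 ± 0.12, adjusted p = 2.18e-09, both edgeR).

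Icos was higher in IL-10 positive cells of 3 cultures and lower in Th2. In Th1 it read 474, 469 and 486 CPM in IL-10 negative and 963, 967 and 953 CPM in IL-10 positive libraries. In pTh17 it read 285, 265 and 273 against 813, 696 and 717 CPM, and in Tr1 182, 177 and 200.5 against 351.5, 389 and 372 CPM. In Th2 the order turned, with 334, 318 and 326 CPM in negative and 287, 257 and 265 CPM in positive libraries, and in Th17 338, 323 and 318 overlapped with 349.6, 334 and 342 CPM. The log2 differences were 1.01 ± 0.06 in Th1 (adjusted p = 2.49e-17), -0.27 ± 0.06 in Th2 (0.000476), 0.07 ± 0.06 in Th17 (0.332), 1.43 ± 0.06 in pTh17 (8e-21) and 0.99 ± 0.06 in Tr1 (3.57e-16, all edgeR). Each of the 5 differences was called against the mean of the other 4: 0.46, -1.15, -0.72, 0.98 and 0.43 in the same order (edgeR, adjusted p = 6.65e-17 to 6.67e-06). Cd28, the main costimulatory receptor, was highest in the Th17 culture's IL-10 positive libraries (1153, 1081 and 1123 CPM against 641, 648 and 699.6 CPM in the negative ones). The positive libraries were far above the negative ones there (0.76 ± 0.06, adjusted p = 1.26e-13, edgeR), and Cd28 also rose in Th1 (0.44), Th2 (0.33) and Tr1 (0.20). The Tr1 call ended without positive library 16 or 18 (edgeR, adjusted p = 0.0632 to 0.111) and without the filter (0.268).

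**Figure D3:**
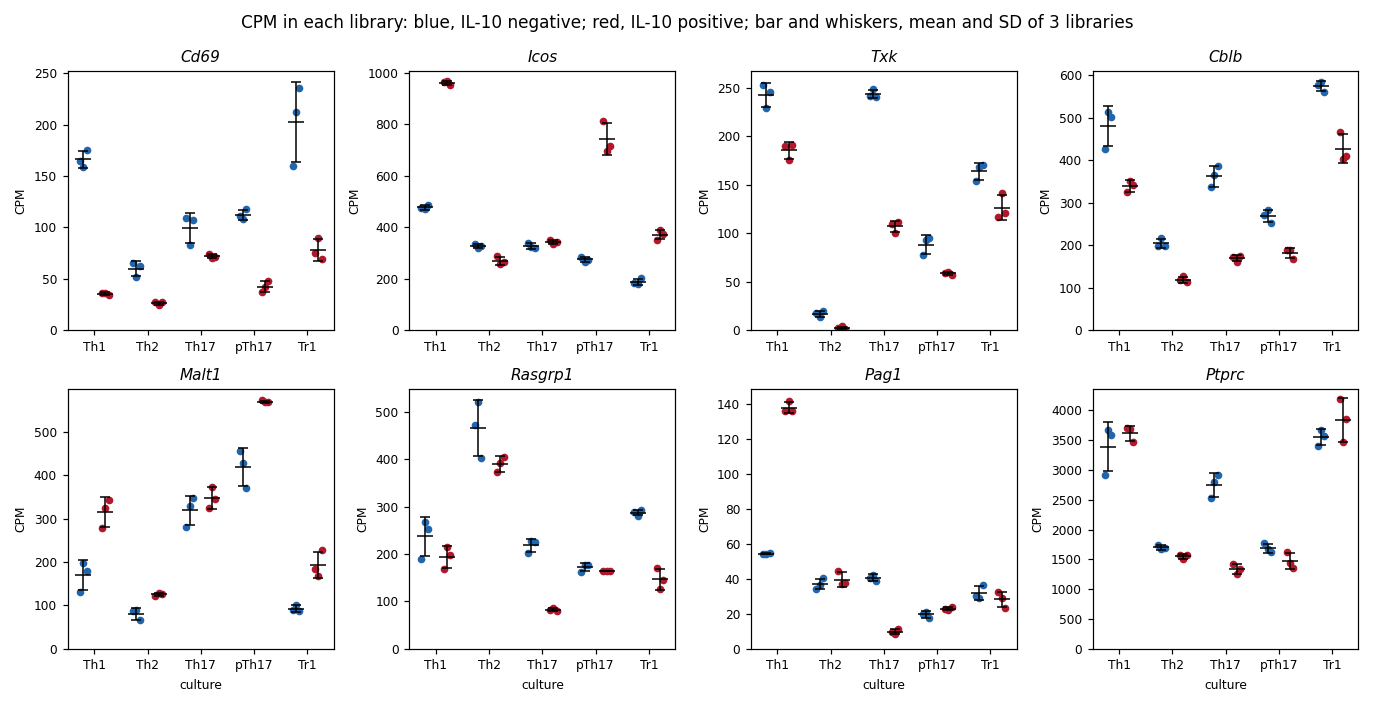
Points give CPM (vertical axis, linear, from 0) of 8 genes in each library of the 5 cultures (horizontal axis), blue for IL-10 negative and red for IL-10 positive, with the mean and SD of 3 libraries. Cd69 and Cblb have red points below blue points in every culture, Icos has red above blue in Th1, pTh17 and Tr1, and Pag1 splits by compartment one way in Th1 and the other way in Th17.

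Cd5 and Cd6, related scavenger receptors that tune receptor signalling and lie close together on chromosome 19 of mm10 (10718107 to 10739026 and 10789339 to 10830062), fell together in Th1 and Th17. Cd5 read 303, 319.6 and 315 CPM in IL-10 negative and 229, 217 and 224 CPM in IL-10 positive Th1 libraries, apart from each other (-0.49 ± 0.06, adjusted p = 1.45e-08, edgeR), and in Th17 its difference was -0.42 ± 0.06 (8.37e-08). Cd6 read 557, 522 and 529.8 against 415, 381 and 413 CPM in Th1, also apart (-0.41 ± 0.06, adjusted p = 1.2e-07, edgeR), and in Th17 its difference was -0.35 ± 0.06 (9.67e-07). The call of Cd6 in Th2 (0.20) ended without positive library 8 (edgeR, adjusted p = 0.0763), and the call of Cd5 in pTh17 (0.18) ended without negative library 13 or 14 or positive library 13 or 15 (0.0579 to 0.111) and without the filter (0.106).

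Among the phosphatases, Ptprc and Ptpn6 differed most by culture. Ptprc encodes CD45, which activates Lck. It read 2524, 2804 and 2909 CPM in IL-10 negative and 1423, 1259 and 1340 CPM in IL-10 positive Th17 libraries. The positive libraries were far below (-1.03 ± 0.07, adjusted p = 1.78e-15, edgeR), and the difference was below the mean of the other 4 (-1.0 ± 0.08, adjusted p = 2.55e-13, edgeR). Ptprc was not called in Th1 (0.09), Th2 (-0.14) or Tr1 (0.11), and its pTh17 call (-0.20, adjusted p = 0.046, edgeR) ended without negative library 13 or 14 or positive library 14 or 15 (0.083 to 0.254), with median-of-ratios size factors (0.0685), with DESeq2 (0.073) and with limma on log2(TPM + 1) (0.422). Ptpn6, which encodes the inhibitory phosphatase SHP-1, rose in Tr1 from 208, 205 and 232 CPM to 321, 333 and 311 CPM, without overlap (0.58 ± 0.06, adjusted p = 1.66e-10, edgeR). In Th2 it fell from 374.5, 379 and 379 CPM to 289, 300.1 and 279.6 CPM, again without overlap (-0.38 ± 0.05, adjusted p = 1.04e-06, edgeR). Tested against the mean of the other 4, the Tr1 difference was higher (0.70 ± 0.06, adjusted p = 4.36e-11) and the Th2 difference lower (-0.50 ± 0.06, adjusted p = 3.55e-08, both edgeR). The pTh17 call of Ptpn6 (-0.20) ended without negative library 15 (edgeR, adjusted p = 0.0769) and in limma on log2(TPM + 1) (0.0779). Ptpn2, which dephosphorylates Src and Janus kinases, was higher in pTh17 (0.34 ± 0.06, adjusted p = 8.92e-05, edgeR) and Th17 (0.22 ± 0.06, adjusted p = 0.00305, edgeR). Ptpn22, a partner of Csk, had calls of 0.17 in Th17 and -0.18 in pTh17. Both ended in limma on log2(TPM + 1) (0.77 and 0.186), the first also without positive library 10 or 12 (edgeR, adjusted p = 0.0669 to 0.107) and the second without negative library 13 or positive library 14 or 15 (0.0817 to 0.135).

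Of the ubiquitin ligases and Sts proteins, which remove or silence activated receptors and kinases, Cblb was lower in all 5 cultures. Cblb, the ligase that sets the need for CD28 costimulation, read 336, 365 and 385 CPM in IL-10 negative and 173, 161 and 173 CPM in IL-10 positive Th17 libraries. In Th2 it read 198, 217 and 197 against 118, 126 and 112.5 CPM, and in Tr1 577, 585 and 561 against 466, 404 and 411 CPM. The compartments did not overlap in any of the 5 cultures. Its log2 differences were -0.51 ± 0.07 in Th1, -0.78 ± 0.07 in Th2, -1.10 ± 0.07 in Th17, -0.57 ± 0.07 in pTh17 and -0.43 ± 0.07 in Tr1 (edgeR, adjusted p = 2.7e-16 to 5.43e-06). The Th17 difference was lower than the mean of the other 4 (-0.53 ± 0.08, adjusted p = 6.26e-07, edgeR). Its relative Cbl was called in Tr1 (-0.53 ± 0.10, adjusted p = 3.9e-05, edgeR) and in Th1 (-0.36 ± 0.10, adjusted p = 0.00317, edgeR), where the call ended without negative library 5 (0.0653).

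Ubash3a and Ubash3b encode Sts-2 and Sts-1, which restrain Zap70 and Cbl-bound receptors. In Th17, Ubash3a read 108, 112 and 107 CPM in IL-10 negative and 45, 48.9 and 49.9 CPM in IL-10 positive libraries, and Ubash3b 70.8, 88.2 and 77.8 against 35.4, 42.0 and 43.1 CPM. The compartments were well apart for both genes (-1.18 ± 0.07, adjusted p = 1.31e-17 and -0.97 ± 0.10, adjusted p = 2.34e-10, edgeR). In Th1 both rose, by 0.24 ± 0.06 (adjusted p = 0.00144) and 0.54 ± 0.10 (adjusted p = 3.1e-05, both edgeR). Against the mean of the other 4 differences, the Th17 difference was -1.20 ± 0.08 for Ubash3a and -1.06 ± 0.12 for Ubash3b (edgeR, adjusted p = 5.71e-16 and 1.32e-09). Ubash3a was also lower in Tr1 (-0.25 ± 0.07, adjusted p = 0.00437, edgeR). Its Th2 call (0.18) ended without negative library 7 or 9 or positive library 7 or 8 (edgeR, adjusted p = 0.113 to 0.136), without the filter (0.121) and in limma on log2(TPM + 1) (0.0729).

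Pag1 had the widest split between cultures among the inhibitory adaptors. It encodes the membrane anchor of Csk, the kinase that switches Lck and Fyn off. Pag1 read 54.0, 54.4 and 54.5 CPM in IL-10 negative and 136, 142 and 136 CPM in IL-10 positive Th1 libraries, and 40.6, 42.4 and 38.5 against 9.51, 8.5 and 11.2 CPM in Th17. So the positive compartment was the higher in Th1 and the lower in Th17, with log2 differences of 1.34 ± 0.10 (adjusted p = 1.19e-14) and -2.05 ± 0.12 (adjusted p = 8.65e-18, both edgeR). In Th2, pTh17 and Tr1 its differences of 0.10, 0.23 and -0.19 were not called. Csk rose in Tr1 (0.28 ± 0.07, adjusted p = 0.00266, edgeR) and fell by 0.51 ± 0.07 on the log2 scale in Th2 (2.96e-07), by 0.28 ± 0.07 in Th17 (0.000829) and by 0.31 ± 0.07 in pTh17 (0.00153); the Tr1 call ended without the filter on low counts (0.0968). Sla, an adaptor that lowers receptor levels, rose in Th17 (0.37 ± 0.05, adjusted p = 3.42e-08, edgeR) and fell by 0.23 in Th1 and 0.24 in pTh17. Its Th2 call (-0.13, adjusted p = 0.0404, edgeR) ended without any one of the 6 libraries (0.0715 to 0.11) and without the filter (0.267), which also ended those in Th1 (0.0648) and Tr1 (0.16, then 0.556).

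Both diacylglycerol kinases, which end the diacylglycerol signal, were lower in the IL-10 positive cells of Th1, Th2, Th17 and pTh17. Dgka, the more abundant of them (mean 724 TPM against 39.9 TPM for Dgkz), read 1842, 1837 and 1826 CPM in IL-10 negative and 1003, 900.7 and 981 CPM in IL-10 positive Th17 libraries. In pTh17 it read 929.6, 974 and 944 against 562.5, 578 and 544 CPM. Its compartments did not overlap in any culture, and the log2 differences were -0.16 ± 0.05 in Th1, -0.36 ± 0.05 in Th2, -0.93 ± 0.05 in Th17, -0.76 ± 0.05 in pTh17 and -0.26 ± 0.05 in Tr1 (edgeR, adjusted p = 5.39e-19 to 0.00634). The Th17 and pTh17 differences lay below the mean of the other 4 (-0.55 and -0.33) and those of Th1 and Tr1 above it (0.42 and 0.29), the Tr1 call ending without the filter on low counts (0.18, adjusted p = 0.0709, edgeR). The Th1 call ended without positive library 6 (-0.08, adjusted p = 0.278, edgeR), with median-of-ratios size factors (-0.11, adjusted p = 0.0612) and without the filter (-0.10, adjusted p = 0.321). Dgkz fell by 0.48 ± 0.08 on the log2 scale in Th17 (adjusted p = 4.79e-06, edgeR) and by 0.34 ± 0.08 in Th2 (0.00189). Its Th1 call (-0.26) ended without negative library 5 or positive library 6 (edgeR, adjusted p = 0.05 to 0.0502) and without the filter (0.105), and its pTh17 call (-0.26) without negative library 14 or 15 or positive library 14 (0.068 to 0.123) and in limma on log2(TPM + 1) (0.328).

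Of the calcineurin and NFAT genes, Nfatc1 and Nfatc2 moved differently. Nfatc1 rose in Tr1, from 209, 229.8 and 215 CPM in IL-10 negative to 282.5, 274 and 320.2 CPM in IL-10 positive libraries. The compartments were apart (0.42 ± 0.09, adjusted p = 0.000156, edgeR), and the difference was above the mean of the other 4 (0.74 ± 0.10, adjusted p = 1.83e-07, edgeR). Nfatc1 was lower in Th17 (-0.37 ± 0.09, adjusted p = 0.000406, edgeR) and Th2 (-0.35 ± 0.08, adjusted p = 0.00161, edgeR). Its Th1 call (-0.22) ended without positive library 4 or 6 or negative library 5 or 6 (edgeR, adjusted p = 0.0718 to 0.196) and under each of 4 other settings (0.0743 to 0.146), and its pTh17 call (-0.31) without positive library 13 or negative library 14 (0.0819 to 0.0871) and in limma on log2(TPM + 1) (0.184). Nfatc2 rose in Th1, from 53.8, 66.0 and 64.9 CPM to 110.3, 119.9 and 121.5 CPM, with no overlap (0.92 ± 0.09, adjusted p = 1.8e-10, edgeR). It also rose in Th2 (0.36), pTh17 (0.33) and Tr1 (0.30). The pTh17 call ended without negative library 13 (edgeR, adjusted p = 0.067), the Tr1 call without either replicate 17 or either replicate 18 (0.0605 to 0.261) and without the filter (0.201), and the Th2 call in limma on log2(TPM + 1) (0.0883). Nfatc3 was called only in Th17 (-0.74 ± 0.09, adjusted p = 4.27e-09, edgeR).

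Ppp3ca, a calcineurin catalytic subunit, was expressed low (mean 5.22 TPM), so its values carry more counting error. Other catalytic subunits are among the further pathway genes counted below, so Ppp3ca does not stand for the enzyme as a whole. It read 8.30, 7.57 and 5.40 CPM in IL-10 negative and 12.4, 16.2 and 13.9 CPM in IL-10 positive Th1 libraries, apart from each other (1.02 ± 0.23, adjusted p = 0.000375, edgeR). In Th17 it read 1.15, 2.58 and 1.70 against 0.971, 0.747 and 0.748 CPM, a narrow gap (-1.14 ± 0.42, adjusted p = 0.0186, edgeR), and the call ended without negative library 11 (-0.79, adjusted p = 0.176) and in the fit of the 6 Th17 libraries alone (0.0752). In pTh17 it read 1.20, 1.30 and 1.53 against 2.62, 3.77 and 2.71 CPM (1.15 ± 0.35, adjusted p = 0.0162, edgeR), and the call ended without negative library 13 or positive library 14 (0.0584 to 0.0916). The Th2 call (0.61) ended without any of replicates 8 and 9 of either compartment (edgeR, adjusted p = 0.079 to 0.149) and in limma on log2(TPM + 1) (0.109). Rcan1, a calcineurin inhibitor that NFAT induces, was the lowest of the 43 at a mean of 0.974 TPM and was called in no culture; its differences were 0.90, -0.55, 0.22, 0.74 and -0.17 in Th1, Th2, Th17, pTh17 and Tr1, with SE of 0.41 to 0.70.

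Across the roles, 6 of the 43 genes (14%) were called lower in all 5 cultures: Fyn, Txk, Plcg1, Cd69, Cblb and Dgka. Of all genes tested, 1.39% were lower in all 5. None of the 43 was called higher in all 5, where 1.78% of all genes were. Zap70, Lcp2, Malt1, Cd28 and Nfatc2 were called higher in 4, and Rasgrp1, Dgkz and Nfatc1 lower in 4. The share of all genes called the same way in 4 cultures was not counted. Fyn, Txk, Cd69 and Cblb were lower in all 5 under each of the 5 other fits of all 30 libraries, while Dgka dropped out with median-of-ratios size factors and without the filter, and Plcg1 with limma on log2(TPM + 1). The 6 genes hold activating (Fyn, Txk, Plcg1) and restraining (Cblb, Dgka) functions. In all, 19 genes (44.2%), Nfatc1 among them, were called higher in at least 1 culture and lower in at least 1 other, where 13.5% of all genes were. Without the filter 15 genes were called both ways, 13 of them among the 19, and with limma on log2(TPM + 1) 16 were. The remaining fits of all 30 libraries gave 19 or 20. The mean of the 5 differences was called for 32 of the 43, 9 higher and 23 lower, where 57.8% of all genes were called (29.6% higher, 28.2% lower), with a median of -0.13 beside -0.00 for all genes. The test that the 5 differences are equal was called for 37 of the 43, where 60.7% of all genes were called. Each culture's difference was also set against the mean of the other 4. Th17 had 31 called, 5 above and 26 below (46.5% of all genes called, 23.9% above and 22.6% below). Tr1 had 22, 18 above and 4 below (22.2% of all genes, 14.4% above and 7.76% below), and 12 above and 5 below without the filter. Th1 had 20, 16 above and 4 below (22% of all genes, 11.6% above and 10.3% below). The pTh17 culture had 19, 8 above and 11 below (24.2%, 8.94% and 15.2%), and Th2 had 13, 7 above and 6 below (20.7%, 8.44% and 12.3%). In limma on log2(TPM + 1) the pTh17 split turned to 10 above and 6 below, and with median-of-ratios size factors the Th2 split turned to 6 above and 8 below. These 5 comparisons share their libraries with one another.

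**Figure D4:**
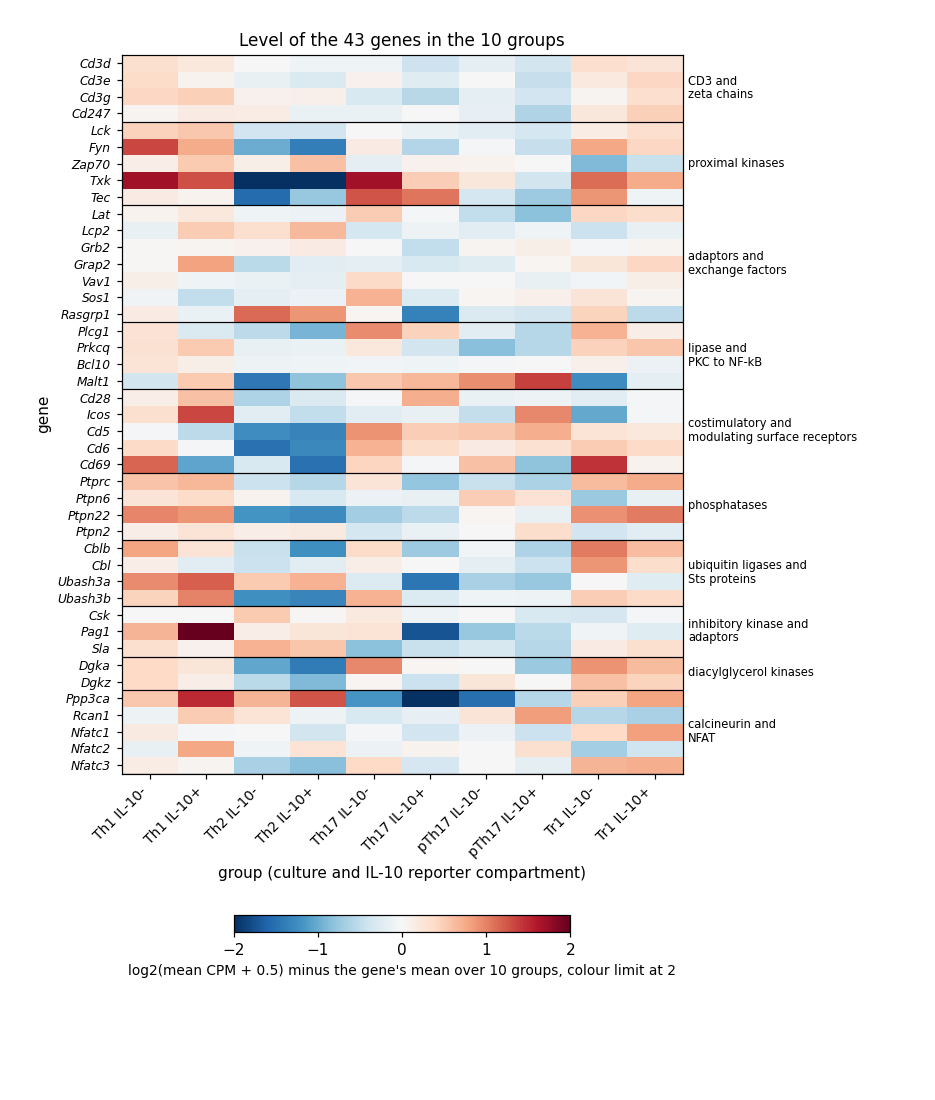
Colour gives log2(mean CPM + 0.5) of each of the 43 genes (rows) in the 10 groups (columns, 3 libraries each) minus the gene's mean over the 10 groups, with colours limited at 2. The Txk row is darkest blue in both Th2 groups and the Pag1 row reddest in Th1 IL-10 positive, at 138 CPM against 9.74 CPM in Th17 IL-10 positive.

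The levels of the 43 genes also differed between the cultures, averaged over both compartments; equality of the 5 cultures was called for all 43, where 95.6% of all genes were called. In Th1, 30 of 43 stood above the mean of the other 4 cultures and 2 below, where 60% of all genes were called (32.6% above and 27.4% below). In Tr1, 26 stood above and 12 below, where 72.2% of all genes were called (36.5% and 35.7%). In Th2, 11 stood above and 27 below (78.6% called, 39.4% and 39.2%), and in pTh17 9 above and 24 below (66.1% called, 34.3% and 31.8%). In Th17, 13 stood above and 23 below (57.5% called, 29.1% and 28.4%). That Th17 split turned to 25 above and 7 below in limma on log2(TPM + 1), which moved the median of all genes by 0.22 in that comparison, and 11 genes called lower in Th17 came out above 0 there. The same setting gave 23 above and 6 below in Th1, where it moved the median of all genes by -0.16. Median levels against the other cultures were 0.34 in Th1, -0.24 in Th2, -0.10 in Th17, -0.19 in pTh17 and 0.37 in Tr1, beside 0.03, -0.04, 0.00, 0.01 and 0.00 for all genes.

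In Th2, surface receptors and most proximal kinases stood below the mean of the other 4 cultures, though not below every group. All 5 surface receptors did, with Cd6 at -1.75 ± 0.04, Cd5 at -1.62 ± 0.04 and Cd69 at -1.13 ± 0.07 (edgeR, adjusted p = 3.34e-33 to 3.77e-18). Icos, however, read 318 to 334 CPM in Th2 IL-10 negative and 177 to 200.5 CPM in Tr1 IL-10 negative libraries. Cd6 read 142, 151 and 141 CPM in IL-10 negative and 165, 177 and 159 CPM in IL-10 positive Th2 libraries, below the 381 to 672.5 CPM of all other libraries. Among 5 kinases 4 stood below, led by Txk at -4.42 ± 0.08 (adjusted p = 2.94e-34, edgeR). Txk had the widest range of the 43: its group means ran from 2.41 CPM in Th2 IL-10 positive to 243 CPM in Th17 IL-10 negative, a ratio of 100.8. Zap70 stood above, and its highest group mean, 612.3 CPM, was that of Th2 IL-10 positive. Rasgrp1 read 373 to 521.8 CPM in Th2 and at most 292.5 CPM in every other library. Rasgrp1 (1.26 ± 0.05, adjusted p = 3.53e-24) and Ppp3ca (1.39 ± 0.13, adjusted p = 1.9e-12, both edgeR) had the 2 largest positive differences of Th2 from the mean of the other 4 cultures. For Ppp3ca the Th2 group means of 7.9 and 12 CPM stood beside 7.09 and 14.2 CPM in Th1. All 4 CD3 and zeta chains were above the mean of the other 4 cultures in Th1 (median of 0.30) and in Tr1 (0.38) and below it in pTh17 (-0.35). Cd247 in Th1 turned to -0.03 in limma on log2(TPM + 1).

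Over the 6 Th1 libraries, Pag1 ran from 54.0 to 141.7 CPM, above the 8.5 to 44.5 CPM of all other libraries, while Txk ran from 175 to 252.6 CPM and Sos1 from 10.3 to 16.4 CPM, both overlapping with other cultures. Cd5 ran from 217 to 319.6 CPM, above all Th2 libraries and below those of the other 3 cultures. The genes with the largest differences from the mean of the other 4 cultures are given for each culture, which need not itself hold the highest or lowest level. For Th1 they were Txk (1.89 ± 0.05) and Pag1 (1.71 ± 0.05) above it, and below it Sos1 (-0.37 ± 0.10) and Cd5 (-0.34 ± 0.03; edgeR, adjusted p = 1.34e-28 to 0.00236). Over the 6 Th17 libraries, Tec ran from 19.8 to 28.0 CPM, next to at most 20.3 CPM elsewhere, and Ppp3ca from 0.747 to 2.58 CPM, overlapping with pTh17. For Th17 they were Tec (1.52 ± 0.08) and Txk (1.40 ± 0.05) above the mean, and below it Ppp3ca (-2.33 ± 0.20) and Ubash3a (-1.08 ± 0.04; edgeR, adjusted p = 2.39e-24 to 3.66e-13). Over the 6 pTh17 libraries, Prkcq ran from 231.7 to 310.6 CPM, below the 323.7 CPM or more of every other library, and Malt1 from 370.0 to 572.4 CPM, overlapping with Th17 at one end. For pTh17 they were Malt1 (1.44 ± 0.06, adjusted p = 2.63e-23) and Rcan1 (0.96 ± 0.24, adjusted p = 0.000649) above, and below Ppp3ca (-1.44 ± 0.18, adjusted p = 8.79e-09) and Prkcq (-0.88 ± 0.03, adjusted p = 4.61e-24, all edgeR). Rcan1 ran from 0.843 to 2.98 CPM in pTh17 and from 0.222 to 0.711 CPM in Tr1, few counts in either. For Tr1 they were Ptpn22 (1.23 ± 0.03) and Cblb (1.03 ± 0.04) above, and below Rcan1 (-1.16 ± 0.34) and Malt1 (-0.90 ± 0.07; edgeR, adjusted p = 7.82e-30 to 0.00291). Malt1 had group means of 92.3 and 193 CPM in Tr1, above those of Th2 (80.9 and 125.7 CPM). Ptpn22 read 486 to 569 CPM in the 6 Tr1 libraries and 484 to 539 CPM in the 6 Th1 libraries, ranges that overlap, and 101 to 118 CPM in Th2. The order of group means for Malt1 ran from 80.9 CPM in Th2 IL-10 negative to 569.5 CPM in pTh17 IL-10 positive, and for Cblb from 119 CPM in Th2 IL-10 positive to 574.5 CPM in Tr1 IL-10 negative.

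Another 44 genes of the same pathway, from a list written beside the 43, were described by count. In Th17, 72.7% of the 44 were called, 7 higher and 25 lower in IL-10 positive cells, where 58.2% of all genes were called, and the median was -0.31 beside -0.04 for all genes. In Th1, 56.8% were called, 15 higher and 10 lower (43.8% of all genes; median 0.16 beside -0.02). Tr1 had 52.3% called, 12 higher and 11 lower (34.7% of all genes; 0.04 beside 0.05). Th2 had 45.5% called, 10 higher and 10 lower (21.8% of all genes; 0.01 beside 0.01), and pTh17 38.6%, 6 higher and 11 lower (18.5% of all genes; -0.01 beside -0.00). Tespa1, an adaptor for calcium release, fell by 3.81 ± 0.31 on the log2 scale in Th1 (adjusted p = 4.54e-13), by 1.58 ± 0.28 in Tr1 (2.27e-05) and by 1.21 ± 0.26 in pTh17 (0.000524, all edgeR). Its Th2 difference of -0.33 was not called, and its Th17 call (-0.61, adjusted p = 0.0222, edgeR) ended without negative library 10 (-0.15, adjusted p = 0.597) or positive library 10 (-0.46, adjusted p = 0.118) and in the fit of the 6 Th17 libraries alone (0.0828). Trat1, which stabilises the receptor complex, rose in Th1 (1.62 ± 0.40, adjusted p = 0.000928, edgeR) and fell by 1.85 ± 0.63 in Th17 and by 1.42 ± 0.52 in Tr1. It was also called in Th2 (-0.63, adjusted p = 0.0232, edgeR), a call that ended without positive library 7 or 8 or negative library 8 or 9 (0.0562 to 0.122) and in limma on log2(TPM + 1) (0.25), and in pTh17 it was not called (-1.16, adjusted p = 0.0545, edgeR). The Th17 call of Trat1 ended without positive library 11 (adjusted p = 0.0556), and the Tr1 call without negative library 16 or 18 or positive library 17 or 18 (0.0651 to 0.154, edgeR).

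Themis, another of the 44 and a receptor signalling adaptor, rose in 4 cultures and fell in Th17. Its log2 differences were 1.27 ± 0.06 in Th1, 0.79 ± 0.06 in Th2, 0.57 ± 0.06 in pTh17, 0.40 ± 0.06 in Tr1 and -0.35 ± 0.07 in Th17 (edgeR, adjusted p = 1.87e-20 to 4.58e-05). Rnf128, the ubiquitin ligase Grail, rose in Th2 (1.59 ± 0.25, adjusted p = 4.23e-06, edgeR) and was not called in Th1, Th17, pTh17 or Tr1 (0.82, -0.41, 0.20 and 0.43). Without positive library 12 its Th17 difference was -1.58 (adjusted p = 0.0384, edgeR). Tnfaip3, the ubiquitin editor A20, was lower in 4 cultures, at -1.53 ± 0.11 in Th17, -0.82 ± 0.11 in Tr1, -0.70 ± 0.11 in Th1 and -0.59 ± 0.11 in Th2 (edgeR, adjusted p = 1.46e-14 to 8.6e-05), and its pTh17 difference of -0.15 was not called. Lax1, a membrane adaptor, was lower in Th17 (-1.24 ± 0.11, adjusted p = 2.14e-12), pTh17 (-0.99 ± 0.12, adjusted p = 4.01e-08) and Th2 (-0.64 ± 0.12, adjusted p = 7.15e-05, all edgeR). Smaller calls of Lax1 in Th1 (-0.26, adjusted p = 0.0278, edgeR) and, the other way, in Tr1 (0.29, adjusted p = 0.0245, edgeR) both ended under other settings. The Th1 call ended without any library but negative library 5 (0.059 to 0.0963), with median-of-ratios size factors (0.0788), DESeq2 (0.0816), no filter (0.0723) and limma on log2(TPM + 1) (0.0557). The Tr1 call ended without either library numbered 16 or 17 (0.0785 to 0.12), without the filter (0.105) and in limma on log2(TPM + 1) (0.148).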

How the data were processed

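The 30 RNA-seq libraries were made by an adaptation of SMART-Seq2, per the labels' protocols, without molecular identifiers or strand information; overlapping and antisense genes may therefore share reads. The authors deposited RSEM's expected counts per gene, TPM and the gene length in each library, another measure of those tables, per the file headers. RSEM and the build mm10 come from the submitters' processing notes. For the aligner and RSEM's version, nothing is stated in what was used here. Groups and replicate numbers follow the sample titles; the protocol gives Thy1.1 positive for both compartments.

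Expected counts were rounded, filtered by filterByExpr (12611 genes) and scaled by TMM. edgeR 4.0.16 in R 4.3.3 fitted 1 mean per group over all 30 libraries without covariates, and glmQLFTest gave two-sided p-values, adjusted by Benjamini-Hochberg over all genes tested. The SE is the log2 difference over the square root of F. Deposited TPM from the authors gave levels between genes, and limma 3.58.1 used log2(TPM + 1) as an alternative. Other alternatives were median-of-ratios size factors, DESeq2 1.42.0, no filter, the replicate number as a block, the 6 libraries of a culture alone, and leaving out each library. The scripts were tested on simulated data.

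Any of the 43 genes could be named. Values in every library (or their range over a culture's 6) were to be given for genes called at an absolute log2 difference of at least 1 between compartments of any culture and for the 2 largest called on each side of each culture comparison. Of the other pathway genes, the 2 largest called per culture were named, with their values in all 5 cultures. Library values of further genes were added after their values were seen. Cases where a call ended are named beside it. The 43 genes, lists and tests were chosen with earlier results of these data known.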

Additional observations from a re-analysis of the deposited data

Results flagged for a closer look

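Tests of the difference between cultures marked the IL-10 positive minus negative difference as unequal for 37 of the 43 genes (edgeR, equality over the 5 cultures). Of all genes tested, 60.7% were called by the same test. Another 19 values are marked because the gene was called higher in 1 or more cultures and lower in 1 or more others. That held for 44.2% of the 43 genes and for 13.5% of all genes. The clearest adjusted p-values of equality (edgeR) were those of Icos (5.69e-20; higher in Th1, pTh17 and Tr1, lower in Th2), Pag1 (5.99e-19; higher in Th1, lower in Th17) and Ubash3a (1.91e-15; higher in Th1 and Th2, lower in Th17 and Tr1).

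Genes higher in Tr1 and lower in 1 or more other cultures were Ptpn6 (adjusted p of equality 5.91e-12, edgeR; lower in Th2 and pTh17), Csk (1.69e-07; lower in Th2, Th17 and pTh17), Cd3e (8.35e-07; lower in Th1, Th17 and pTh17), Nfatc1 (1.18e-06; lower in the other 4), Vav1 (1.09e-05; lower in Th1 and Th17), Cd3g (2.07e-05; lower in Th17 and pTh17) and Lck (0.000585; lower in Th17). Cd247 (5.79e-11) was higher in Th17 and Tr1 and lower in Th2 and pTh17, and Sla (4.48e-10) higher in Th17 and Tr1 and lower in the other 3. The Tr1 calls of Csk, Cd3e, Vav1, Lck, Cd247 and Sla ended without the filter on low counts. That of Cd3e also ended without positive library 18, and that of Vav1 without negative library 16 or positive library 17. The Th17 difference of Cd247 changed sign in limma on log2(TPM + 1). Other calls in this section that ended are named with their genes above.

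Genes lower in Th17 and higher in at least 1 other culture than Tr1 were Prkcq (adjusted p of equality 2.97e-11, edgeR; higher in Th1 and pTh17), Ubash3b (1.25e-09; higher in Th1), Cd6 (6.24e-09; higher in Th2, lower also in Th1), Cd5 (2.24e-08; higher in pTh17, lower also in Th1) and Ppp3ca (0.00222; higher in Th1, Th2 and pTh17). Tec (3.01e-06) was higher in Th2 and lower in Tr1, and Ptpn22 (0.000959) higher in Th17 and lower in pTh17.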

How the results depend on the processing

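No total of called genes among the 43, higher and lower together, moved by over 1.5 times under any alternative, but counts in 1 direction did, such as 15 higher in Tr1 against 6 without the filter, and 13 above and 23 below in Th17 levels against 25 and 7 with limma on log2(TPM + 1). Leaving out each library in turn gave 23 to 29 called in Th1, 18 to 21 in Th2, 31 to 34 in Th17, 19 to 22 in pTh17 and 23 to 25 in Tr1 for the IL-10 difference, 31 to 33 for its mean and 35 to 38 for its equality. Against the mean of the other 4 differences it gave 17 to 22 (Th1), 10 to 13 (Th2), 28 to 30 (Th17), 15 to 20 (pTh17) and 19 to 22 (Tr1). For levels it gave 43 for equality and 31 to 34 (Th1), 37 to 39 (Th2), 34 to 36 (Th17), 32 to 35 (pTh17) and 37 to 39 (Tr1). Without Tr1 IL-10 positive replicate 18, 24 were called in Tr1. Single genes kept direction and call in 632 cases with DESeq2 (8 ended, 10 began), 630 with median-of-ratios size factors (12 ended, 8 began), 600 without the filter (43 ended, 7 began) and 565 with limma on log2(TPM + 1), where 53 ended, 17 began and 15 turned. Those that turned were Cd247 in the Th17 IL-10 difference (-0.0197); in Th1 levels Cd247 (-0.0348) and Nfatc3 (-0.0531); in Th2 levels Nfatc2 (-0.0031); and in Th17 levels Cd3e (0.20), Cd247 (0.20), Lck (0.21), Fyn (0.021), Lcp2 (0.0143), Prkcq (0.20), Icos (0.0615), Ptpn6 (0.13), Cblb (0.075), Dgkz (0.0291) and Nfatc1 (0.0338). The cause was not tested. Same-numbered libraries of the 2 compartments deviated together little (correlations of -0.0975 to 0.134 over 15 pairs, 2 over 0.1; 8 of 15 negative libraries correlated best with their own number), so the numbers were not taken to pair them. With the replicate number as a block, 27 genes were called in Th1 and in Tr1, 23 in Th2, 34 in Th17 and 25 in pTh17. Depth limits Rcan1, Ppp3ca and Tec most, the 3 with the lowest mean CPM.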

Other observations

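RSEM's deposited gene length weights a gene's transcripts by their estimated abundance. For Ptprc, a gene known for alternative splicing, group means ran from 5248.64 bases in Th17 IL-10 positive to 5361.52 bases in Tr1 IL-10 negative libraries. For Nfatc2 they ran from 5786.87 bases in Tr1 IL-10 positive to 6382.04 bases in Th1 IL-10 positive libraries. Whether the use of transcripts differed between groups was not tested.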
